A study of Mus musculus with 2 samples.

Results

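The integrated stress response was followed through 10 of its genes (Nupr1, Atf3, Atf4, Atf5, Ddit3, Trib3, Chac1, Ppp1r15a, Asns and Sesn2) in single cells of mouse pancreatic islets. These are the 10 rows, of 31053 genes in the count matrices, whose symbols are those of the named genes, and each symbol occurred once. The islets came from wild type C57BL/6J females of 2 groups, with 1 library per group. Multipara mice were first mated at 9 weeks of age, went through 3 pregnancies in a row and were sampled 3 weeks after the last delivery, and virgin mice of the same age and the same litters served as controls. No transgene or drug was used in either group. Pups were taken away from the dams, which limits lactation in the multipara group. Islets of both groups were kept briefly in serum-containing medium and then dissociated with trypsin before droplet capture. The labels do not say how many mice went into each library. With 1 library per group no test between groups was possible, and each difference described here is between these 2 libraries, with an interval that covers counting error only and not the spread between animals.

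The integrated stress response starts when one of 4 kinases (PERK, GCN2, PKR or HRI) phosphorylates the translation factor eIF2alpha. General protein synthesis then slows, while the mRNA of the transcription factor ATF4 is translated more, through short reading frames upstream of its coding sequence. ATF4 and its partners bind C/EBP-ATF response elements in genes for amino acid supply, redox balance and the shutdown of the response itself. Beta cells, which make large amounts of proinsulin, depend on the PERK arm of this response to match translation to the folding capacity of the endoplasmic reticulum. Since ATF4 and ATF5 are controlled largely at translation, their mRNA need not follow their protein.

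The promoters were searched for the letters by which ATF4 partners are known to bind, because these sequences connect several of the genes described here. The RefSeq promoter windows (build GRCm38.p6, 250 bases before and 50 after each transcript start) were searched on both strands for TGATGNAA, which reads TTNCATCA on the other strand, and for the cAMP response element TGACGTCA, which reads the same on both strands. The first was found in 5 of the 10 genes and in 4.51% of all 27025 genes with a window. The second was found in 1 of the 10 genes and in 2.03% of all genes. In the runs below, read 5′ to 3′ along the strand of the gene, capitals mark the matched letters.
Nupr1: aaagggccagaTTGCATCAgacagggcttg
Atf3: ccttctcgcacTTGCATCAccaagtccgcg
Chac1: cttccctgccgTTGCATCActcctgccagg
Trib3: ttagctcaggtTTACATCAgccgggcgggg
Asns: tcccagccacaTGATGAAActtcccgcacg
Ppp1r15a: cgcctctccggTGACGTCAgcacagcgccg
The Nupr1 run lies at chr7:126625562-126625591 on the minus strand and its capitals at bases -110 to -103 from the transcript start, the same distance as in Atf3 (chr1:191183425-191183454, minus strand). The Chac1 match lies at -193 to -186 (run at chr2:119351038-119351067, plus strand), the Asns match at -23 to -16 (chr6:7693214-7693243, minus strand) and the Trib3 match at 15 to 22 downstream of the start (chr2:152344028-152344057, minus strand). The Ppp1r15a match lies at -12 to -5 (chr7:45526262-45526291, minus strand). The windows of Atf4, Atf5, Ddit3 and Sesn2 held neither string of letters, which says nothing of elements outside these windows or spelled differently. Of the genes with the first element, Nupr1 and Atf3 were past the fold limit used below in beta cells, and Chac1, Trib3 and Asns were not.

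The virgin library held 94853806 UMIs (unique molecular identifiers, 1 per captured RNA molecule) in 5463 barcodes, and the multipara library 82503776 in 5075. After the cell filter of the study and the removal of doublets, 4330 and 3330 cells were kept, of which 89.3% and 88.8% fell into exactly 1 of 10 cell types. Endocrine cells were gated on their hormone and other cells on a marker list, and cells with 2 or more hormones (334 and 251) or a hormone together with non-endocrine markers (21 and 58) were left out. Beta cells numbered 1771 and 1567, alpha cells 1025 and 634, delta cells 253 and 226 and endothelial cells 257 and 217. There were 78 and 85 pancreatic polypeptide (PP) cells, 58 and 59 pericytes, 75 and 90 macrophages, 130 and 38 T cells and 163 and 34 B cells. Fibroblasts numbered 58 (virgin) and 6 (multipara), so no ratio is given for them. Each cell type had UMIs for every marker on its own list in both libraries, but these lists hold the genes used for gating. The values are thus no independent check of the cell types. The alpha list includes Gcg, whose level the gates limit in beta cells. In beta cells the alpha marker list summed to 1919 virgin and 1219 multipara CPM (UMIs scaled to a total of 1000000 for each cell type), against 413733 and 432974 in alpha cells, and the acinar list to 0.750 and 1.56 CPM. The libraries shared 7 barcodes, 2 of them in a cell type in both.

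In beta cells, Nupr1, Atf3 and Ddit3 were higher in the multipara than in the virgin library, and Atf5 and Ppp1r15a were higher to a lesser degree. Asns had a log2 ratio of 0.17, and those of Atf4, Trib3, Chac1 and Sesn2 ran from -0.05 to 0.03. A gene was called past the limit if its log2 ratio was at least 0.32 in size and it had at least 100 UMIs in both libraries together. All 10 genes had enough UMIs, and 3 of 10 were past the limit upwards and 0 downwards. Among all 10902 genes with enough UMIs, 4.33% were past the limit upwards and 12.0% downwards, with a median log2 ratio of -0.08. The median over the 10 genes was 0.24. The paper had already named Nupr1, Atf3, Atf5 and Ddit3 as upregulated in multipara beta cells, from these same libraries. The count and the median of the 10 genes are therefore a description and no independent evidence. With TMM scaling, which moves that general median to 0.01, the split of all genes was 7.12% higher and 7.09% lower, and Atf5 and Ppp1r15a joined the 3 genes above. With each cell weighted equally the split was 16.2% higher and 14.2% lower, with the same 3 of the 10 genes past the limit. Summed over the 10 genes, the level was 1011 CPM (51210 UMIs) among virgin and 1377 CPM (63484 UMIs) among multipara beta cells, a log2 ratio of 0.45 (95% interval 0.43 to 0.46). Without Nupr1, a calculation added after the values were seen, the ratio of the sum was 0.29 (0.27 to 0.31).

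**Figure D1:**
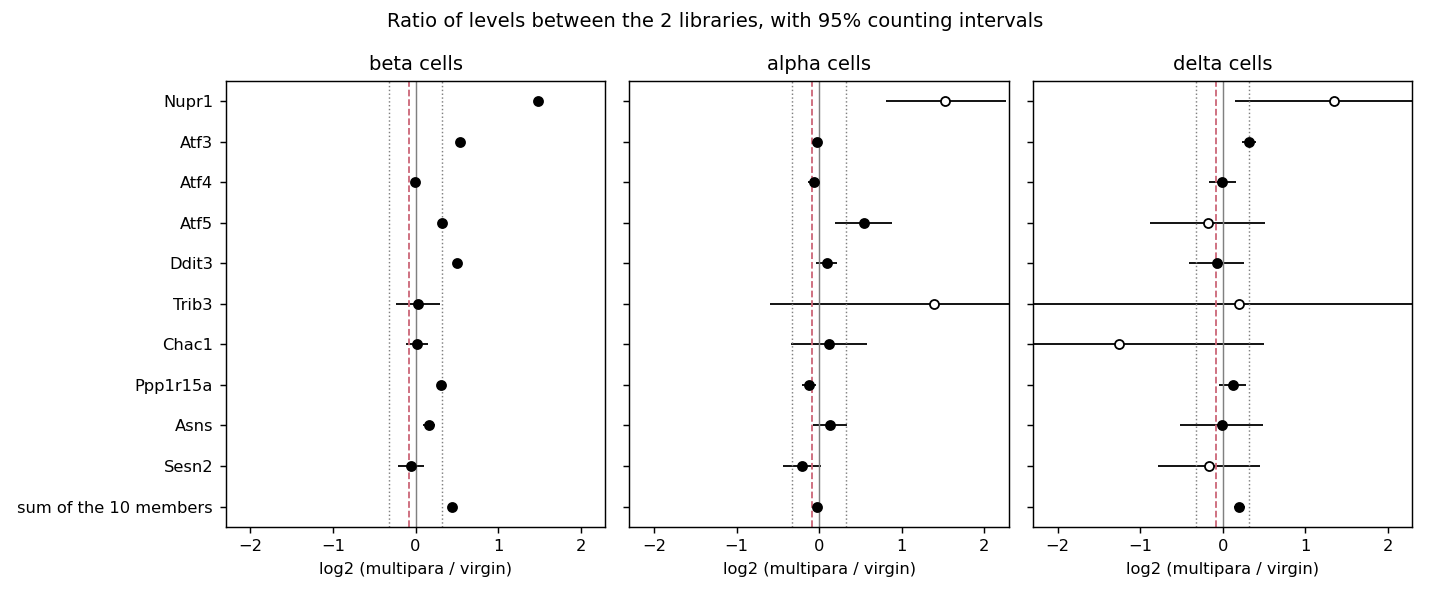
Log2 ratio of the level in the multipara library over that in the virgin library (x axis) for each gene and for their sum (y axis), in beta, alpha and delta cells. Bars are 95% counting intervals and are clipped at the panel edge, open circles mark genes with under 100 UMIs in both libraries together, dotted lines the limit of 0.32 and the dashed line the median of all genes. Nupr1, Atf3 and Ddit3 lie beyond the upper limit in beta cells, whereas the alpha cell sum lies at -0.02.

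The transcriptional regulators of the response gave the widest range in beta cells. Nupr1, a small stress-induced chromatin protein, had 4553 UMIs (89.9 CPM, 95% interval 87.3 to 92.6) in the virgin and 11577 UMIs (251 CPM, 247 to 256) in the multipara library. Its log2 ratio of 1.48 (1.43 to 1.53), or 2.79-fold, ranked 26th from the top among the 10902 genes. Atf3, an immediate early bZIP factor that ATF4 also induces, was at 166 CPM (163 to 170) and 242 CPM (237 to 246), with a log2 ratio of 0.54 (0.50 to 0.58). Ddit3, which encodes the pro-apoptotic factor CHOP, was at 155 CPM (151 to 158) and 218 CPM (214 to 223), with a log2 ratio of 0.50 (0.45 to 0.54). For each of these 3 genes the level intervals of the libraries lay apart. Atf5, a bZIP factor linked to the mitochondrial stress response, was at 143 and 178 CPM, and its log2 ratio of 0.31 (0.27 to 0.36) was just under the limit. Atf4 itself, the hub of the pathway, was at 254 CPM (249 to 258) and 252 CPM (248 to 257), with a log2 ratio of -0.01 (-0.04 to 0.03). Levels of different genes are not compared, since 3′ counts carry no correction for how well each transcript is captured.

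The effectors of the response differed less between the libraries than Nupr1, Atf3 and Ddit3 did. Ppp1r15a (GADD34), the phosphatase subunit that reverses eIF2alpha phosphorylation, was at 104 CPM (101 to 107) and 129 CPM (126 to 132), with a log2 ratio of 0.31 (0.25 to 0.36), also just under the limit. Asns, asparagine synthetase, was at 59.8 and 67.1 CPM, with a log2 ratio of 0.17 (0.09 to 0.24). The level intervals of the libraries did not overlap for either gene, whereas they did for the other 3 effectors. Trib3, a pseudokinase that restrains ATF4, had 253 and 235 UMIs, with a ratio of 0.03 (-0.23 to 0.29). Chac1, which degrades glutathione, had 1017 and 936 UMIs, with a ratio of 0.02 (-0.11 to 0.15). Sesn2, an inhibitor of TORC1 signalling, had 738 and 648 UMIs, with a ratio of -0.05 (-0.21 to 0.10). Chac1 and Trib3, which are known targets of ATF4 and CHOP, were thus not among the genes that differed, with counting intervals that leave room for a ratio of up to 0.29 for Trib3.

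Ddit3 lies on chromosome 10 (127290774 to 127296288, GRCm38, plus strand) and overlaps AC144852.1 on the same strand, which had 0 UMIs in beta cells of both libraries. Reads that fit both genes would be counted for neither, so the Ddit3 level may be too low in both libraries, which was not tested. Sesn2 (chromosome 4, 132492032 to 132510501, minus strand) contains Gm12981 on the same strand, which had 27 and 16 UMIs, so a part of the Sesn2 reads could have been assigned either way. Nupr1 (chromosome 7, 126623249 to 126630861, minus strand) overlapped no other annotated gene.

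The mitochondrial share of UMIs, a sign of cell quality, moved with Nupr1 and Atf5 across cells, and the differences between libraries were therefore also computed within bands of it. Beta cells had median mitochondrial shares of 4.15% (virgin) and 3.76% (multipara) among the cells kept. The filter at 10% had removed 277 virgin and 1043 multipara insulin-positive barcodes, which these medians leave out, and the part of cell quality in the Nupr1 difference was not tested beyond the bands below. Among beta cells under 5% (1088 and 1045 cells) Nupr1 was at 56.4 and 194 CPM, with a log2 ratio of 1.78 (1.70 to 1.86). Among those from 5% to 10% (683 and 522 cells) it was at 150.0 and 374 CPM, with a ratio of 1.32 (1.251 to 1.385). Atf3 gave 0.54 and 0.52 in the lower and the upper band, and Ddit3 0.52 and 0.42. Atf5 gave 0.42 and 0.29 and Ppp1r15a 0.36 and 0.19, so both were past the limit in the lower band and under it in the upper. Atf4 gave 0.00 and -0.01. The intervals of Nupr1, Atf3, Ddit3, Atf5, Ppp1r15a and Asns lay above 0 in both bands.

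Nupr1 was higher in the multipara library in the share of beta cells as well as in the level. To compare shares at equal depth, beta cells were thinned to 5500 UMIs each, which left 1606 virgin and 1360 multipara cells and left out 165 and 207 shallower ones. A Nupr1 UMI was found in 22.5% of virgin cells (362 of 1606, exact interval 20.5 to 24.7) and in 50.2% of multipara cells (683 of 1360, 47.5 to 52.9). Without thinning, 36.6% of virgin and 63.1% of multipara beta cells had one, with 29900 and 32231 UMIs in the median cell. Among cells with a UMI, the mean was 2.20 and 2.80 UMIs, and 3 or more UMIs were held by 113 virgin and 286 multipara cells. The tenth of virgin beta cells richest in Nupr1 held 69.7% of its UMIs, against 44.1% in the multipara library. Both shares depend on the mean level, which was 0.497 and 1.41 UMIs per thinned cell, so they do not show a change in spread apart from the change in level.

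**Figure D2:**
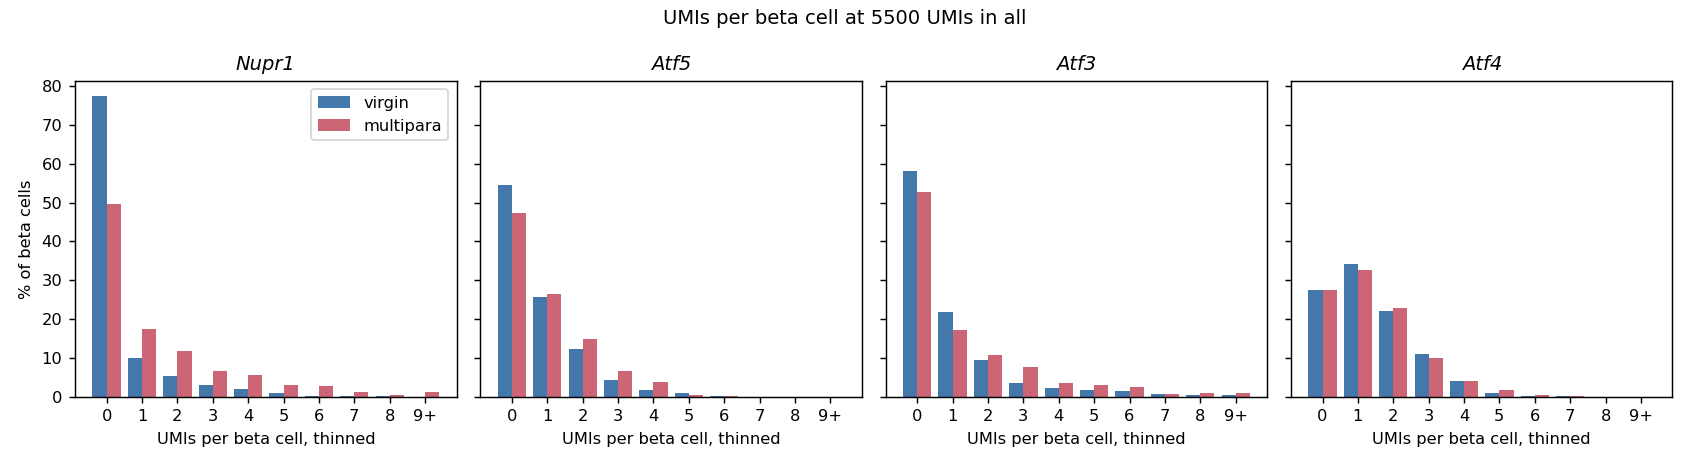
Share of beta cells (y axis, %) by the number of UMIs of Nupr1, Atf5, Atf3 and Atf4 per cell (x axis) after each cell was thinned to 5500 UMIs, in the virgin and multipara libraries. Cells with 0 Nupr1 UMIs made up 77.5% of virgin and 49.8% of multipara beta cells, whereas the 2 Atf4 distributions lay close together.

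The other genes differed less in the share of thinned beta cells. Ddit3 was found in 49.3% (46.8 to 51.8) of virgin and 58.2% (55.5 to 60.8) of multipara cells, and Atf5 in 45.5% (43.1 to 48.0) and 52.6% (49.9 to 55.3). Atf3 was found in 41.9% and 47.4% of cells, with intervals that did not overlap, while its mean among cells with a UMI was 2.16 and 2.72 UMIs. Ppp1r15a was found in 40.5% and 45.1%, with overlapping intervals. Atf4 was found in 72.6% and 72.4% of cells. Asns (28.0% and 29.0%), Chac1 (8.59% and 9.78%), Sesn2 (7.60% and 6.32%) and Trib3 (3.05% and 2.06%) had overlapping intervals. The summed UMIs of the 10 genes had a median of 5 per virgin and 7 per multipara cell. At least 5 of the 10 genes were detected in 20.4% and 31.5% of cells, none of them in 3.24% and 1.62%, and the largest number in any cell was 8 and 9. These values depend on the shares of the single genes and do not by themselves show joint expression.

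Across cell types the 10 genes did not share one pattern, and several were lower in beta cells than elsewhere. Beta cells had the highest level of Ddit3, Chac1 and Asns in both libraries. The beta interval of Ddit3 lay above those of all other virgin cell types, and above those of all other multipara cell types once the 6 fibroblasts were set aside. For Asns and Chac1 some cell types with few UMIs had wide intervals that reached the beta level, such as multipara T cells for Asns (6 UMIs), and virgin pericytes and multipara T and B cells for Chac1 (1 UMI each). Ddit3 in alpha cells was at 77.8 and 82.9 CPM and in PP cells at 35.8 and 38.6 CPM. Asns in alpha cells was at 28.1 and 30.9 CPM, Chac1 at 5.90 and 6.43 CPM. Trib3 was low throughout, at 5.73 and 5.15 CPM in endothelial cells and 0.246 and 0.643 CPM in alpha cells, and its endothelial and beta intervals overlapped. Trib3 had 0 UMIs in fibroblasts, pericytes and macrophages of both libraries, and at the virgin depth a count of 0 allows up to 6.85, 14.3 and 6.30 CPM in these cells.

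**Figure D3:**
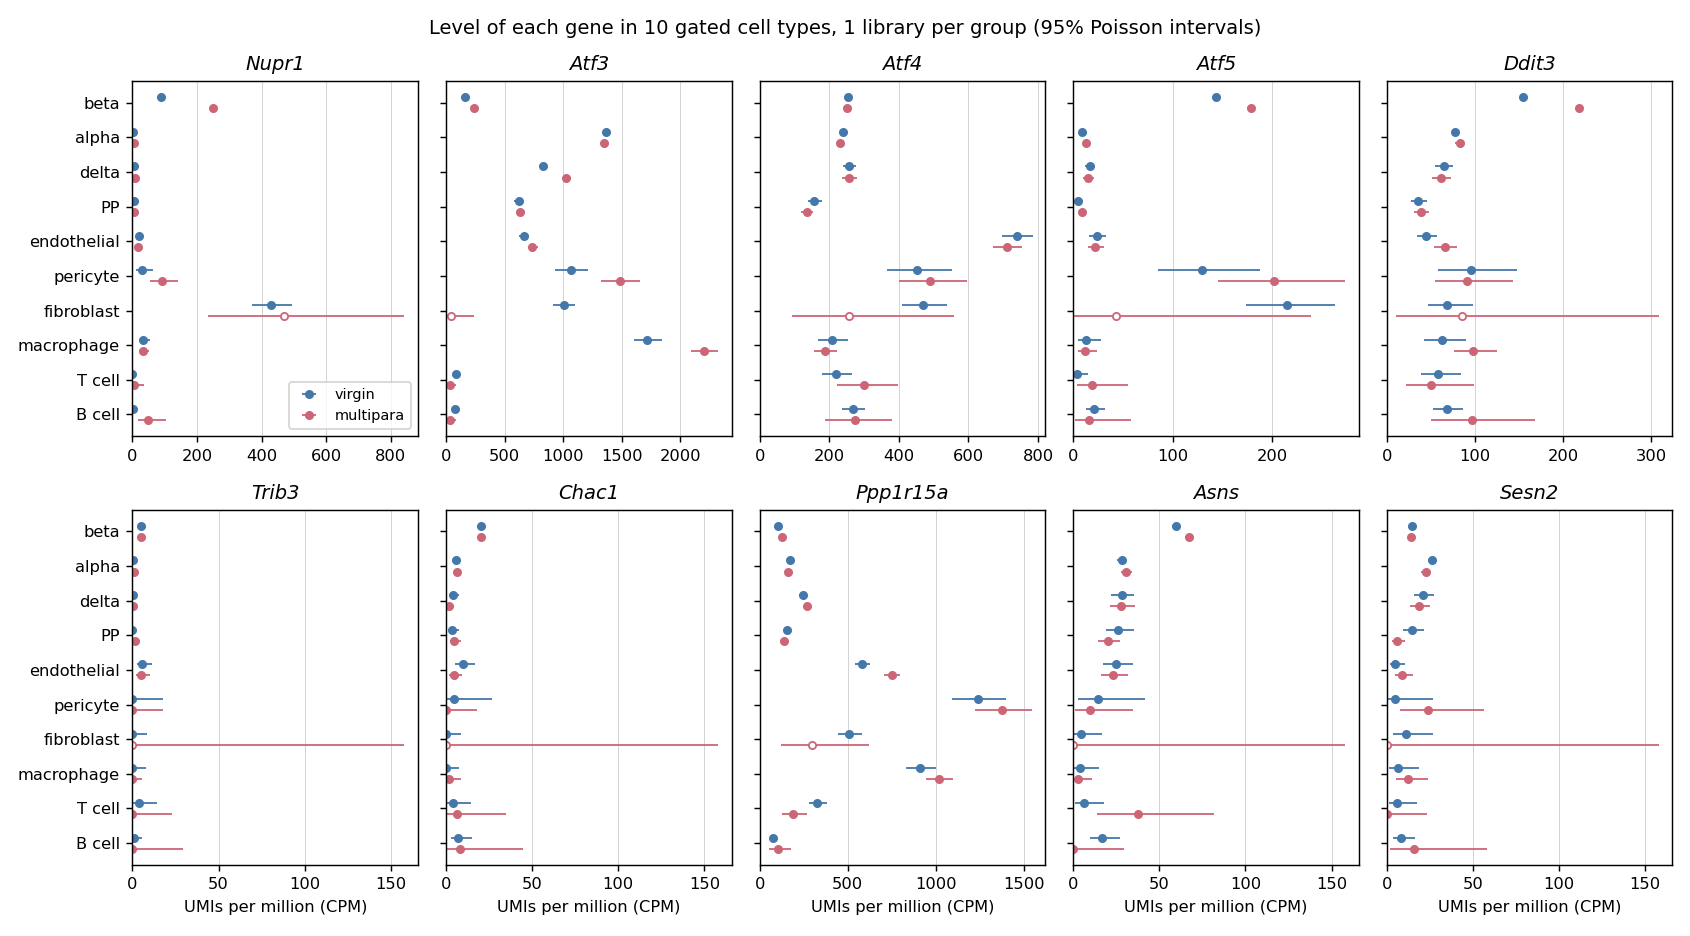
Level of each gene (x axis, CPM, own scale in each panel) in 10 cell types (y axis) of the virgin and multipara libraries. Bars are 95% Poisson intervals and the open circle is the fibroblast value from 6 multipara cells; Ddit3 lies highest in beta cells, Atf3 highest in macrophages and Nupr1 highest in fibroblasts and beta cells.

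Nupr1 was highest in fibroblasts and beta cells. Virgin fibroblasts reached 430 CPM (188 UMIs, 370 to 496), 4.78-fold the virgin beta level, and the 6 multipara fibroblasts had 11 UMIs (471 CPM, 235 to 843). Next after beta cells came virgin macrophages at 33.6 and pericytes at 28.6 CPM, and endothelial cells with 28 UMIs, with overlapping intervals. Multipara pericytes were at 91.4 CPM (19 against 6 virgin UMIs), a log2 ratio of 1.67 (0.29 to 3.29). B cells were at 2.07 and 48.2 CPM (2 and 6 UMIs), with the interval of the ratio also above 0. Both cell types had too few UMIs for a call. The ratios of macrophages (-0.01, -1.01 to 1.01) and endothelial cells (-0.21, -1.02 to 0.61) had intervals that include 0. In alpha cells Nupr1 had 26 virgin and 50 multipara UMIs (1.60 and 4.59 CPM), and free RNA from beta cells, scaled by the Ins2 level of alpha cells (0.949% and 1.56% of that in beta cells), would give 13.9 and 42.7 UMIs. Delta cells had 9 and 20 UMIs, against 2.86 and 14.0 on the same reckoning. The multipara alpha count was thus close to what beta cell RNA alone would give. The counting interval of the multipara delta count also included the value from beta cell RNA, and both virgin counts lay above theirs. The alpha ratio of 1.52 (0.81 to 2.27) is therefore uncertain. On the same reckoning, beta cell RNA would give 3.21 UMIs in multipara pericytes and 1.87 in multipara B cells. At 2000 UMIs per cell, a Nupr1 UMI was found in 12.6% of virgin and 30.3% of multipara beta cells, in 0.405% and 1.28% of alpha cells, in 0.403% and 0.917% of delta cells, and in 57.9% of virgin fibroblasts. Part of the alpha and delta shares can be free beta cell RNA, by the counts above.

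Atf5 was highest in fibroblasts, beta cells and pericytes, with 215, 143 and 129 CPM in the virgin library. Among multipara cells pericytes were at 202 and beta cells at 178 CPM, and the 6 fibroblasts had 1 UMI. The beta and pericyte intervals overlapped in both libraries. In alpha cells Atf5 was at 8.66 and 12.6 CPM, 6.04% and 7.06% of its beta level, and free beta cell RNA would give 22.1 of its 141 virgin and 30.3 of its 137 multipara UMIs.

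Atf3 and Ppp1r15a were lower in beta cells than in most other cell types. Atf3 was at 1718 CPM in virgin and 2204 CPM in multipara macrophages, at 1365 and 1346 CPM in alpha cells and at 824 and 1027 CPM in delta cells, against 166 and 242 CPM in beta cells. Only T cells (88.7 and 37.5 CPM) and B cells (77.7 and 32.1 CPM) were lower in the virgin library. After thinning to 2000 UMIs, 82.5% of virgin and 80.1% of multipara alpha cells had an Atf3 UMI, compared with 22.5% and 28.8% of beta cells. Free alpha cell RNA, scaled by the Gcg level of beta cells, would give 3.98 and 2.33 CPM of the Atf3 in beta cells. Ppp1r15a was at 1236 and 1376 CPM in pericytes, 912 and 1019 CPM in macrophages and 582 and 749 CPM in endothelial cells, against 174 and 160 CPM in alpha cells.

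Atf4 was at 740 and 712 CPM in endothelial cells, above the pericytes (453 and 491 CPM), and between 230 and 258 CPM in alpha, beta and delta cells of both libraries. PP cells were lowest, at 158 and 136 CPM, with an interval that overlapped that of macrophages in the virgin library. Sesn2 was at 26.1 and 22.6 CPM in alpha cells and 20.8 and 18.6 CPM in delta cells, with overlapping intervals, and at 14.6 and 14.1 CPM in beta cells.

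In alpha cells the sum of the 10 genes barely differed between the libraries, at 1927 and 1896 CPM, a log2 ratio of -0.02 (-0.05 to 0.002). Atf3 had 22213 and 14656 UMIs and a ratio of -0.02 (-0.05 to 0.01), Atf4 one of -0.06 (-0.14 to 0.01) and Ddit3 one of 0.09 (-0.03 to 0.22). Ppp1r15a had a ratio of -0.12 (-0.21 to -0.04), on the other side of 0 from its ratio in beta cells, a difference that was not tested. The median of all genes in alpha cells was -0.09, within that interval. Of the 8 genes with enough UMIs, Atf5 alone was past the limit, with a ratio of 0.54 (0.19 to 0.89), and 0 were lower. That call was lost with each cell weighted equally, where the ratio of Atf5 was 0.14. In alpha cells 2.84% of 9445 genes were past the limit upwards and 12.5% downwards. Median mitochondrial shares were 4.31% and 4.04%.

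In delta cells the sum was 1464 and 1684 CPM, a log2 ratio of 0.20 (0.14 to 0.27), which came mostly from Atf3 with 2142 and 2322 UMIs and a ratio of 0.318 (0.23 to 0.40). None of the 5 genes with enough UMIs was past the limit, where 4.44% of 5404 genes were upwards and 13.7% downwards. Atf3, at 0.318, was just under it and passed it with TMM (0.39), median-of-ratios scaling (0.39), CPM without the 10 most abundant genes (0.35) and multi-hormone droplets included (0.41). Atf4 was at 258 and 257 CPM. Ddit3 had 168 and 139 UMIs and a ratio of -0.07 (-0.41 to 0.26), an interval that does not reach its ratio of 0.50 in beta cells.

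In endothelial cells 2 of 4 genes with enough UMIs were past the limit, Ddit3 at 0.56 (0.09 to 1.04, 62 and 102 UMIs) and Ppp1r15a at 0.36 (0.23 to 0.49, 813 and 1164 UMIs), and 0 were lower. In these cells 8.91% of 4454 genes were past it upwards and 11.5% downwards. Atf3 gave 0.15 (0.03 to 0.28) and Atf4 -0.06 (-0.18 to 0.07). In macrophages Atf3 gave a ratio of 0.36 (0.24 to 0.48) with 818 and 1458 UMIs, and in pericytes 0.48 (0.22 to 0.73) with 223 and 308 UMIs. The higher Atf3 of the multipara library was thus seen in beta cells, delta cells, endothelial cells, macrophages and pericytes, with intervals above 0, and not in alpha cells or in PP cells (0.03, -0.09 to 0.15). In T and B cells Atf3 had 44 and 75 virgin and 6 and 4 multipara UMIs, too few for a call.

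Over thinned beta cells the UMI counts of the 10 genes were weakly correlated. Their means ran from 0.02 (Trib3) to 1.41 UMIs (Nupr1) per multipara cell. Counts this low limit how high r can be, so low values do not show that genes are unrelated. Over thinned cells, the Pearson correlation of log2(UMIs + 1) had a median of 0.05 in either library over the 45 pairs, and 43 of 45 pairs were under 0.2 in both. These values describe cells of 1 library, which share ambient RNA and handling, and no p-value is given. The other 2 pairs were Atf3 with Ddit3 and Nupr1 with Atf5, the latter with r = 0.27 among virgin and 0.36 among multipara cells. They were found together in 250 virgin and 459 multipara cells, 1.52 and 1.28 times the number that unrelated genes of these frequencies would give. Nupr1 with Asns gave 0.12 and 0.17, and Atf5 with Asns 0.10 and 0.13.

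Among Atf3, Ddit3 and Ppp1r15a, Atf3 with Ddit3 gave 0.09 among virgin and 0.22 among multipara cells, Atf3 with Ppp1r15a 0.10 and 0.16, and Ddit3 with Ppp1r15a 0.06 and 0.13. Mean UMIs per thinned cell also differed, at 0.905 and 1.29 for Atf3 and 0.819 and 1.20 for Ddit3. Since r depends on these means, its differences between the libraries need not reflect a change in how the genes relate. Nupr1 gave 0.10 and 0.05 with Ddit3, 0.06 and -0.03 with Atf3 and -0.01 and -0.03 with Ppp1r15a, so in the virgin library its value with Ddit3 was as high as those among the 3 genes. Atf4 gave between 0.02 and 0.13 with each of the other genes, the top value being that with Nupr1 in the multipara library. Nupr1 and Atf3, the genes of the 10 with the highest ratios between libraries in beta cells, thus had low r (0.06 and -0.03) at this depth.

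**Figure D4:**
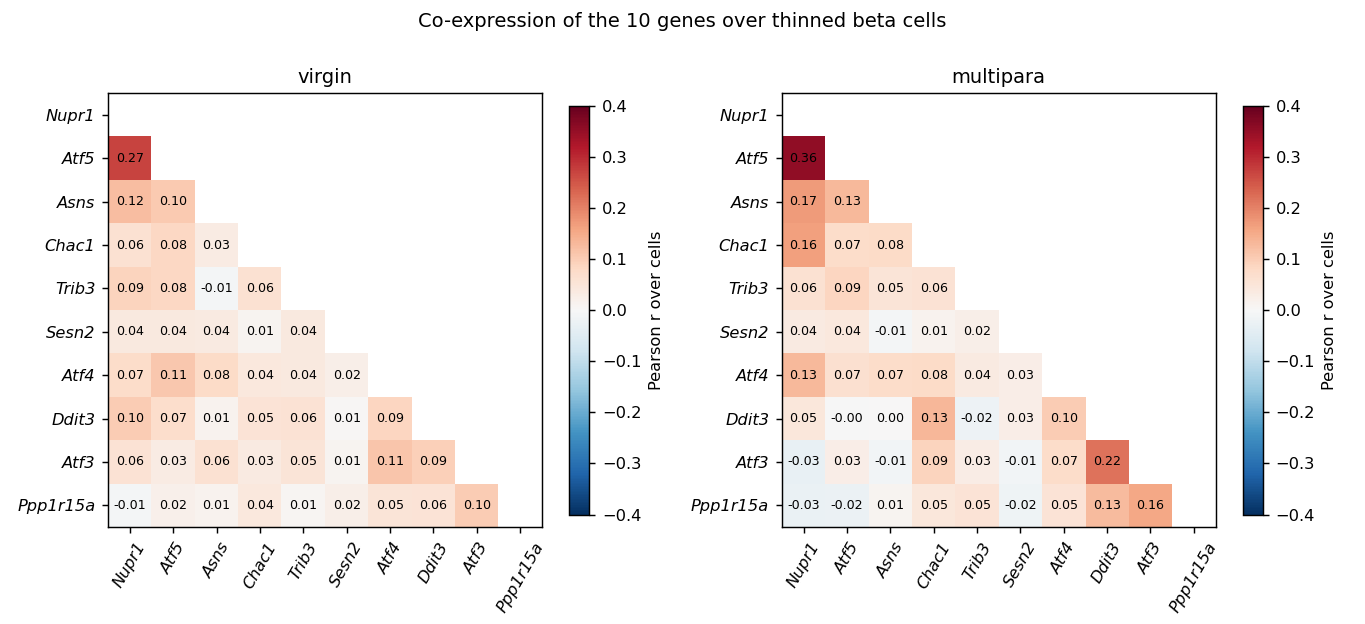
Pearson r of log2(UMIs + 1) over thinned beta cells for each pair of the 10 genes, virgin (1606 cells) on the left and multipara (1360 cells) on the right. Nupr1 with Atf5 has the highest value in both, 0.27 and 0.36, and Atf3 with Ddit3 has 0.09 and 0.22.

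The genes whose pattern over beta cells was most like that of Nupr1 were picked by the smaller of the 2 libraries' r among 5622 genes. They were Ftl1 (ferritin light chain, 0.28 and 0.36), Cd63 (a lysosomal tetraspanin, 0.20 and 0.25) and the mitochondrially encoded mt-Atp6, mt-Co2, mt-Nd4, mt-Nd2, mt-Cytb, mt-Co3, mt-Nd1 and mt-Co1, from 0.18 for mt-Co1 in the virgin to 0.30 for mt-Co2 in the multipara library. The lowest values were those of Chga, Tmem27 and Cpe, with -0.21 and -0.19 for the granule protein Chga. Nupr1 correlated with the mitochondrial share of UMIs of the cell at 0.28 and 0.31 and Atf5 at 0.26 and 0.31, whereas Atf3 gave -0.02 and -0.08. The part of cell quality in this relation was not tested.

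The sum of the 10 genes was most like Ftl1 (0.27 and 0.27), Fosb (0.26 and 0.34), Fos, Jun, Btg2, Egr1, mt-Nd2, Nr4a1 and Mt1, the last at 0.19 and 0.26. Most of these are immediate early genes, which the dissociation of tissue is also known to induce. By single genes, named after their values were seen, Atf3 was most like Fos (0.27 and 0.38), Junb and Jun. Ddit3 was most like Hspa5 (0.21 and 0.30), the main chaperone of the endoplasmic reticulum, Herpud1 (0.20 and 0.30) and the immediate early gene Fosb (0.16 and 0.25).

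Thinned beta cells with and without a Nupr1 UMI were set side by side. This is a range and not a type, since 162 virgin and 236 multipara cells had exactly 1 UMI. Cells with Nupr1 had 2.09-fold as much Atf5 as cells without it among virgin and 2.26-fold among multipara cells, and 1.63-fold and 1.82-fold as much Asns. Chac1 was 1.62-fold and 2.58-fold higher and Atf4 1.15-fold and 1.26-fold higher, whereas Ppp1r15a was at 0.99-fold and 0.97-fold. Atf3 went opposite ways, at 1.23-fold among virgin and 0.90-fold among multipara cells, with intervals on either side of no difference. Ddit3 was at 1.32-fold and 1.10-fold. Trib3 (2.52-fold and 1.78-fold) and Sesn2 (1.28-fold and 1.26-fold) rested on few UMIs. Median mitochondrial shares were 3.70% and 3.15% in cells without Nupr1 and 5.67% and 4.78% in cells with it, at similar depth (30984 to 34417 UMIs).

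The libraries were also compared within cells of like Nupr1 status, as a description only, since Nupr1 itself differed between the libraries and so set which cells fell on either side. In cells without a Nupr1 UMI, Atf3 was at 0.861 and 1.35 UMIs per virgin and multipara cell, a log2 ratio of 0.65 (0.52 to 0.78), and Ddit3 had a ratio of 0.57 (0.44 to 0.71). Ppp1r15a had a ratio of 0.32 (0.15 to 0.49) there. Atf5 had a ratio of -0.07 (-0.25 to 0.10) in cells without Nupr1 and 0.03 (-0.13 to 0.20) in cells with it, against 0.31 in all beta cells. Asns gave -0.21 (-0.48 to 0.05) and -0.05 (-0.32 to 0.22). In cells with Nupr1, Atf3 gave 0.22 (0.04 to 0.39) and Ddit3 0.31 (0.14 to 0.49). There Ppp1r15a gave 0.29 (0.05 to 0.54) and Trib3, on 22 and 18 UMIs, -1.21 (-2.19 to -0.24). The intervals of Atf3, Ddit3 and Ppp1r15a lay above 0 on both sides of the split, and those of Atf5 and Asns included it. That of Trib3 lay below 0 in cells with Nupr1, on too few UMIs for a call. In all beta cells the Trib3 ratio was 0.03 (-0.23 to 0.29).

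The rest of the pathway was described through lists of genes, whose members had no part in the 10. Of the eIF2alpha kinases in beta cells, Eif2ak3 (PERK) gave a log2 ratio of 0.09 (-0.07 to 0.25) with 655 and 635 UMIs, Eif2ak4 (GCN2) -0.05 (-0.39 to 0.29), Eif2ak1 (HRI) -0.23 (-0.44 to -0.02) and Eif2ak2 (PKR) -0.35 (-0.66 to -0.03), the last past the limit downwards. Dele1 and Oma1, which relay mitochondrial stress to HRI, gave 0.05 and -0.04. None of 14 genes of eIF2, eIF2B and the phosphatase was past the limit, with a median of -0.09 beside -0.08 for all genes. In this list Eif2b4, Eif2s2 and Eif2b3 had the highest ratios (0.10, 0.02 and -0.002) and Ppp1r15b, Eif2s3x and Eif2b2 the lowest (-0.30, -0.17 and -0.16). Among 7 bZIP partners of ATF4 with enough UMIs, Fosl2 (0.35) was past the limit, followed by Cebpd (0.23) and Mafg (0.09), and Creb1 (-0.23), Maff (-0.11) and Cebpb (-0.08) were lowest.

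Most ATF4 target genes outside the 10 were not past the limit in beta cells. Of 52 targets, 45 had enough UMIs, 7 were past the limit upwards and 0 downwards, beside 4.33% and 12.0% of all genes. Their median log2 ratio was 0.14, and 42 of 45 lay above the median of all genes. In alpha cells 2 of 36 were higher and 2 lower with a median of -0.02, beside -0.09 for all genes, and 26 lay above that. In delta cells 2 of 23 were higher and 2 lower with a median of -0.07, beside -0.08 for all genes, and 12 lay above that.

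Enzymes of serine, one-carbon and amino acid synthesis gave 5 of these 7 genes. Pycr1, which makes proline in mitochondria, had 497 and 824 UMIs, which gave a log2 ratio of 0.87 (0.70 to 1.03), and Aldh1l2 and Mthfd1l, of the mitochondrial folate cycle, 0.47 (0.28 to 0.65) and 0.45 (0.23 to 0.66). Shmt2 (0.43) and Phgdh (0.35), of serine metabolism, were the other 2, named after their values were seen. Mthfd2 (0.19), Psat1 (0.15) and Gpt2 (0.15) were lowest in this list, whose median was 0.24 over 11 genes. Among 7 transporters, Slc7a11, the cystine importer that feeds glutathione synthesis, had 43 and 116 UMIs and a ratio of 1.57 (1.05 to 2.11). Slc1a4 (0.19) and Slc7a5 (0.17) came next, and Slc7a6 (-0.17), Slc38a2 (-0.13) and Slc7a1 (0.004) were lowest.

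None of 12 aminoacyl-tRNA synthetases was past the limit, with a median of 0.08, from 0.17 for Wars, 0.15 for Sars and 0.14 for Tars down to 0.03 for Mars, 0.02 for Lars and -0.02 for Eprs. All 12 lay above the median of all genes. Of 15 other targets, Gdf15, a secreted stress hormone, was past the limit at 0.53 (-0.04 to 1.10) on 48 and 63 UMIs, with a counting interval that includes 0. Herpud1 (0.25) and Eif4ebp1 (0.23) followed, and Klhl24 (-0.14), Ero1l (-0.06) and Trib2 (-0.05) were lowest.

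**Figure D5:**
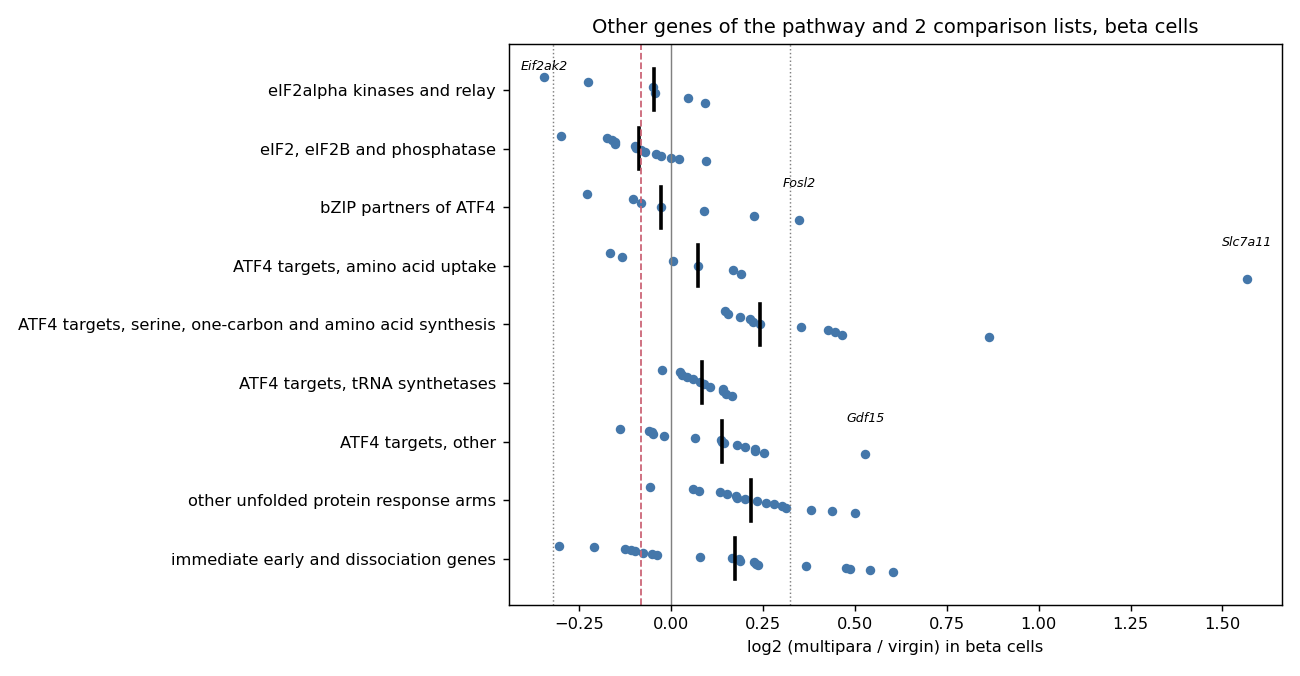
Log2 ratio of the level in the multipara library over that in the virgin library in beta cells (x axis) for genes of each list with at least 100 UMIs (points), with the median of each list (black bar), the median of all genes (dashed line) and the limit of 0.32 (dotted lines). The list of serine, one-carbon and amino acid synthesis has 5 of 11 genes beyond the upper limit, and Slc7a11 lies far from the other transporters.

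Lists of neighbouring programmes were measured beside these. Of 16 genes of the other unfolded protein response arms, 3 chaperone genes were past the limit in beta cells (4.33% of all genes were), Sdf2l1 at 0.50, Creld2 at 0.44 and Calr at 0.38, and 0 were lower, with a median of 0.22. Atf6 (-0.06), Xbp1 (0.06) and Hsp90b1 (0.07) were lowest. Of 20 immediate early and dissociation genes, 5 were higher and 0 lower, led by Zfp36 (0.60), Hspa1a (0.54) and Dnajb1 (0.49), and including Hspa1b (0.48) and Jun (0.37), named after their values were seen. The median of this list was 0.17, and Ier3 (-0.30), Socs3 (-0.21) and Jund (-0.12) were lowest. In delta cells 11 of these 20 were higher (median 0.35), where 4.44% of all genes were, and in alpha cells 0 (median 0.04), where 2.84% were. Atf3 itself gave 0.54 in beta, 0.32 in delta and -0.02 in alpha cells, and the part of dissociation in these values was not tested. Of the genes in these lists, the paper had already named Sdf2l1, Hspa1a, Hspa1b and Dnajb1 as upregulated in multipara beta cells of these same libraries. Their part in the beta cell counts is therefore no independent evidence.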

How the data were processed

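Islet single-cell RNA was captured with Chromium 3′ kits (v3.1) and sequenced on an Illumina instrument. The authors deposited raw UMI counts per gene and barcode for each library. The submitters' processing notes name Cell Ranger 3.1.0, Seurat 3.0 and the builds GRCm38 and mm10. The notes give these no role or order. Groups were taken from the sample titles.

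The cell filter of the study was applied (above 200 and below 6000 detected genes, below 60000 UMIs, and a mitochondrial share below 10%). Scrublet (scanpy 1.11.5) removed 61 virgin (1.39%) and 44 multipara (1.30%) cells. A hormone gate was passed at 10% of the 99th percentile of the share of UMIs of that hormone (6.73% for Ins1 with Ins2, 4.81% Gcg, 2.38% Sst, 4.67% Ppy). Other cells needed at least 4 markers and 0.1% of UMIs. Counts were summed per cell type and scaled to CPM, with exact Poisson intervals for levels, Clopper-Pearson for shares and conditional binomial for log2 ratios, all at 95%. The intervals and the floor of 3 counts for a count of 0 cover counting error only. Ratios needed at least 30 cells in each library. For shares and correlations, cells were thinned without replacement.

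The members, gene lists and alternatives were chosen with earlier results of these data known. Named were all 10 genes, the 3 highest and 3 lowest ratios of each list in beta cells, the eIF2alpha kinases, and the 10 genes most like Nupr1 and most like the sum (found in at least 5% of thinned beta cells of each library), of which 1 gene is not reported here. Dele1 was matched through an older symbol. Intervals and thinning were checked on simulated data. Python 3.11.15, numpy 2.4.6, scipy 1.17.1, pandas 2.3.3, matplotlib 3.10.9, R 4.3.3 and edgeR 4.0.16 (TMM and median-of-ratios factors only) were used.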

Additional observations from a re-analysis of the deposited data

Results flagged for a closer look

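Ppp1r15a was picked out because its difference between the libraries had opposite signs in 2 cell types, with counting intervals on either side of 0. Its log2 ratio of multipara over virgin was -0.12 (-0.21 to -0.04) in alpha cells and -0.80 (-1.41 to -0.23, on 162 and 30 UMIs) in T cells, against 0.31 (0.25 to 0.36) in beta cells. The alpha interval held the median of all genes in alpha cells, -0.09. In T cells (130 virgin and 38 multipara cells) that median was 0.04. There 27.4% of 759 genes were past the limit upwards and 13.4% downwards. The B cell marker list summed to 3674 CPM in virgin and 156 CPM in multipara T cells. The T cell gates of the libraries may thus hold unlike mixtures of cells, and the part of this in the ratio was not tested. The difference between cell types was not tested, since each group was 1 library. With TMM scaling the alpha ratio of Ppp1r15a was -0.04, and with each cell weighted equally it was -0.20.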

How the results depend on the processing

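No paired analysis was possible because each group was 1 library, and for the same reason no replicate could be left out. The log2 ratio of the summed 10 genes in beta cells (0.45) was 0.42 with no cell filter, 0.47 under 5% mitochondrial UMIs, 0.53 with TMM, 0.54 with median-of-ratios scaling, 0.49 with CPM without the 10 most abundant genes, 0.41 with each cell weighted equally and 0.29 without Nupr1. The number of the 10 genes past the limit in beta cells (3) was 5 under 5% mitochondrial UMIs, with either other scaling, without the 10 most abundant genes and relative to the median of all genes, Atf5 and Ppp1r15a being the ones added, and it was 1 at 1.5-fold. It was 4 with the hormone limit at 5% (with Ppp1r15a), and at 20% or with multi-hormone droplets included (with Atf5). The median over ATF4 targets (0.14) was 0.23 with TMM and with median-of-ratios scaling, which moved the median of all genes by 0.09.

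The alpha cell sum (-0.02) was 0.064 with TMM, 0.066 with median-of-ratios scaling, 0.033 without the 10 most abundant genes and -0.084 with each cell weighted equally, so its sign depended on scaling. The delta cell sum (0.20) was 0.29 with multi-hormone droplets, 0.12 with no cell filter, 0.28 with TMM and with median-of-ratios scaling, and 0.13 with each cell weighted equally. The share of multipara beta cells with a Nupr1 UMI (50.2%) was 41.1% under 5% and 67.2% from 5% to 10% mitochondrial UMIs, 39.1% at 3000 UMIs per cell and 63.1% without thinning, beside virgin shares of 15.4%, 33.6%, 14.8% and 36.6%. The median pairwise correlation in multipara cells (0.05) was 0.027 at 3000 UMIs per cell and 0.33 without thinning, where it carries the depth of each cell. The causes of the other shifts were not tested. Leaving out Nupr1 and the band from 5% to 10% were chosen after seeing the data. Single genes moved by more than their counting interval in 31 recomputed values and by less in 89 in beta cells, in 9 and 101 in alpha cells and in 4 and 102 in delta cells. Low counts limit Trib3, whose beta cell ratio ran from -0.65 to 0.21.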

Other observations

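Barcodes past the insulin limit that the cell filter left out for a mitochondrial share of 10% or more numbered 277 (virgin) and 1043 (multipara), and their median cell had 2770 and 2092 UMIs. The 10 genes together were at 1092 CPM (95% Poisson interval 1048 to 1138) and 1104 CPM (1069 to 1140) in them. Nupr1 was at 149 CPM (133 to 166) and 168 CPM (154 to 182), closer together than in the beta cells that were kept. Atf3 was at 108 CPM (94.0 to 122) and 175 CPM (161 to 189), Ddit3 at 144 CPM (128 to 161) and 183 CPM (169 to 198), and Atf4 at 276 CPM (254 to 299) and 208 CPM (193 to 224).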
